A study of Sus scrofa with 22 samples.

Results

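The genes described here are the pig WNT ligands and their partners: the WNT and R-spondin (RSPO) ligands, the frizzled (FZD) and LRP receptors, the secreted antagonists of the SFRP, DKK and WIF1 families, the cytoplasmic DVL and AXIN proteins, and the TCF/LEF transcription factors. They were chosen by gene symbol. The pig annotation holds 53 such symbols, and 33 of them, of 14389 genes in all, had a transcript record that could be matched in the deposited tables: 14 of 19 WNT ligands, 2 of 4 RSPO ligands, 7 of 12 receptors, 6 of 9 antagonists, 2 of 5 DVL and AXIN genes and 2 of 4 TCF/LEF genes. The other 20, AXIN1, AXIN2, DKK4, DVL3, FZD1, FZD6, FZD8, LRP5, LRP6, RSPO1, RSPO3, SFRP4, TCF7, TCF7L1, WIF1, WNT10A, WNT5B, WNT6, WNT7B and WNT9B, were not analysed here.

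WNT proteins are secreted lipid-modified signals that bind FZD receptors. With an LRP co-receptor they block the AXIN complex that degrades β-catenin, which then acts with TCF/LEF factors on target genes, and other WNT proteins act through cell polarity without β-catenin. SFRP and WIF1 proteins bind WNT proteins outside the cell, and DKK proteins such as DKK1 bind the LRP co-receptors. R-spondins raise the number of receptors at the cell surface. In vertebrate embryos the pathway patterns the body axis, the dorsal neural tube, the limb and the gut.

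The study asked how cloned pig fetuses and embryos, made by somatic cell nuclear transfer, differ from fertilized ones, with XIST in view, an RNA made from the X chromosome that silences it. RNA was sequenced from 14 fetus libraries of body tissue and 8 libraries of blastocysts grown in vitro to day 6. Each of 2 fetal ages, day 30 and day 35, had 2 libraries of abnormal clones, 3 of normal clones and 2 of fetuses from natural fertilization (NF). All were labelled male except day 30 NF replicate 2, labelled female. The embryo groups held 2 libraries each: the cloned XIST-KO (XIST knocked out), WT+Kdm4A (Kdm4A removes methyl groups from histone H3) and WT embryos, all male, and IVF embryos, fertilized in vitro and pooled from males and females. The labels give no donor cell line for any clone and no form in which Kdm4A was supplied, and they do not tell whether replicates came from separate animals or cultures. The p-values therefore describe the scatter among these libraries, which may be technical. XIST and KDM4A had no matched record, so their levels are not analysed here.

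Total expected counts ran from 3.46 to 11.54 M in 13 fetus libraries and came to 0.59 M in the other, day 35 abnormal replicate 2. In that library 3 counts correspond to 8.09 CPM, the unit used below (counts per M gene counts, scaled between libraries by TMM). It also stood apart in its whole profile: its Spearman correlation was 0.908 with day 30 NF replicate 1 and 0.889 to 0.892 with the other NF libraries, against 0.789 with day 35 abnormal replicate 1. The summed level of 11 Y-linked genes went against the labels at day 30, with 279 CPM in NF replicate 1 (labelled male) and 1409.9 CPM in NF replicate 2 (labelled female), and at day 35 it was 536 and 297 CPM in the abnormal libraries, against 721 to 948 CPM in the normal ones. Embryo libraries held 6.45 to 20.35 M expected counts.

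The tissue labels were checked against marker genes. Summed skeletal muscle markers (10 with a record) were at 62.5 to 1920 CPM and summed mesenchyme and limb markers (7) at 4562 to 17655 CPM over the fetus libraries. MYF6 and TNNT3 were at 0 in both day 35 abnormal libraries, and MEOX2 was at 0 in every fetus library. In embryos, summed trophectoderm markers (7) were at 35452 to 100933 CPM. Summed epiblast markers (7) were at 76.6 to 363 CPM in XIST-KO, 85.1 to 114 CPM in WT+Kdm4A, 1162 to 2906 CPM in WT and 39.6 to 49.6 CPM in IVF embryos. NANOG and SOX2 were at 0 in all 3 cloned groups. Of the 4 epiblast markers tested in WT against IVF embryos, 1 was called higher and 3 were not called. Their median log2 fold change was -1.34, so the high WT sum does not describe the list as a whole.

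All 33 members were detected in at least 1 fetus library and 22 of them in all 14. In TPM, an abundance scaled by transcript length, the antagonists led. SFRP2 had the highest mean of all members, 464 TPM, with a range of 46.8 to 1124 TPM over the 14 libraries. Among the other roles the highest means belonged to FZD2, a frizzled receptor, at 115 TPM, DVL1, which passes the signal from FZD receptors, at 88.0 TPM, TCF7L2, a TCF factor, at 25.0 TPM, WNT5A, a ligand best known for polarity signalling, at 22 TPM, and RSPO4 at 2.13 TPM. RSPO2, WNT8A, WNT8B and WNT10B were too low to be tested. WNT8B, a ligand of the forebrain in mouse embryos, was detected in 1 fetus library alone, at 12.6 CPM in day 30 abnormal replicate 1. WNT8A reached 2.18 and 0.855 CPM in the day 30 abnormal libraries and 1.92 CPM in day 35 abnormal replicate 1, and was at most 0.395 CPM in the other fetus libraries.

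**Figure D1:**
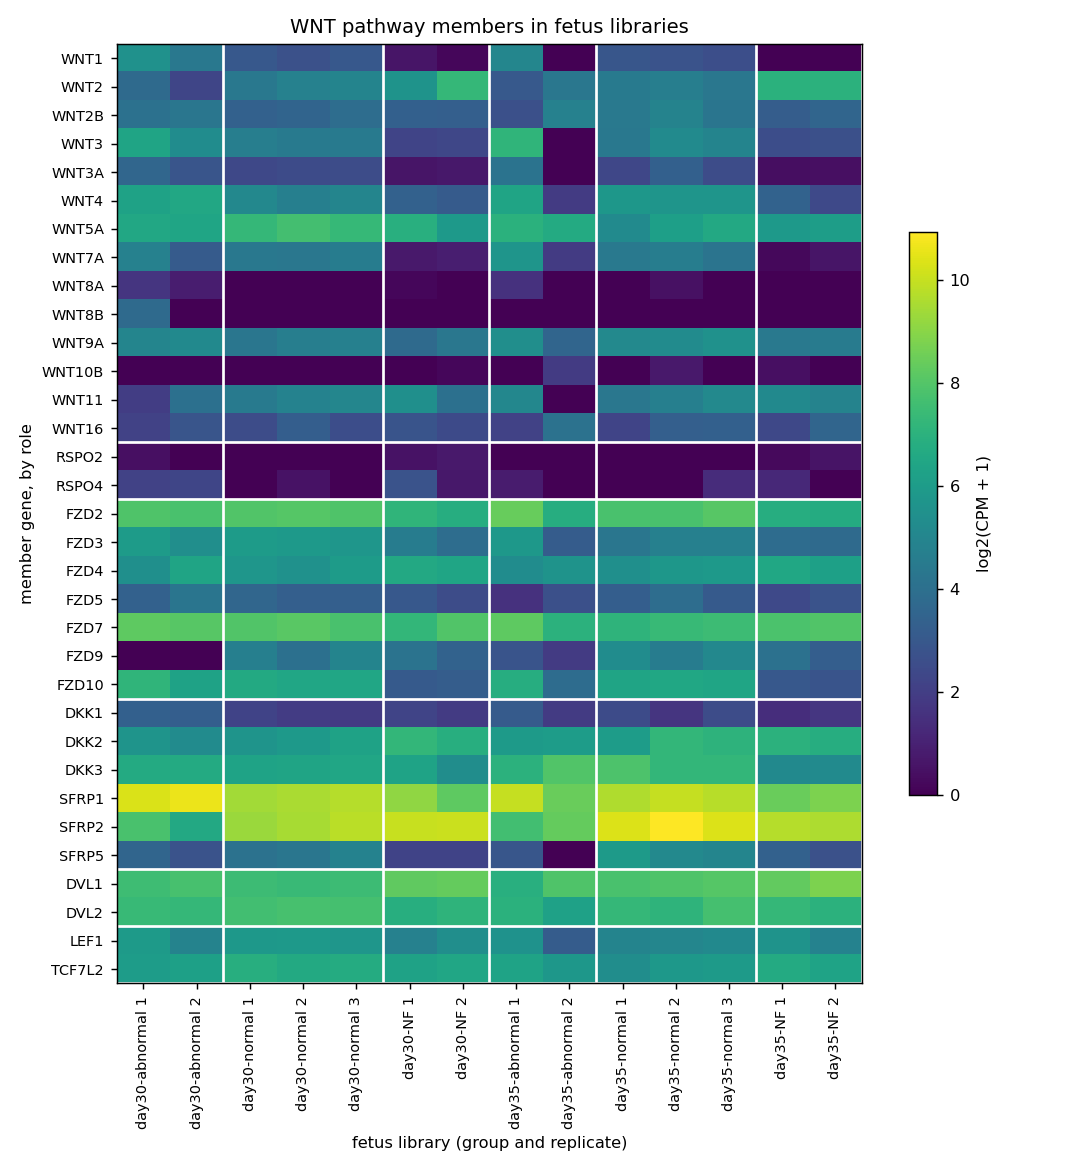
Level of the 33 members (rows, grouped by role) in the 14 fetus libraries (columns, grouped by day and type), as log2(CPM + 1). SFRP1 and SFRP2 are the brightest rows, FZD9 is dark in both day 30 abnormal libraries, and WNT1, WNT3A, WNT7A and FZD10 are darker in the NF columns and in day 35 abnormal replicate 2 than in the other clones.

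The first comparison asked which members differ between abnormal and normal clones at day 30. By the quasi-likelihood test of edgeR, with p-values adjusted by Benjamini-Hochberg over all 9911 genes tested, 3 of 29 members tested passed 0.05: DKK1 rose, and SFRP2 and FZD9 fell. Of all genes, 15.4% passed (8.93% higher, 6.46% lower), so the members' 10.3% lies below the background. The median log2 fold change was 0.18 over members and -0.02 over all genes. The calls fell on 2 of 6 antagonists and 1 of 7 receptors tested. The split moved with the scale: on log2(TPM + 1) the median of all genes was -0.27, 542 genes were higher and 1412 lower (885 and 640 in edgeR), and 0 members were higher and 4 lower.

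SFRP2, a secreted protein that binds WNT ligands, was at 219.8 and 97.1 CPM in abnormal fetuses, against 630.2, 725 and 876 CPM in normal fetuses. The groups did not overlap. The log2 fold change was -2.23 ± 0.36 (SE), adjusted p = 0.0034 by edgeR. In NF fetuses of the same day SFRP2 was at 1039.5 and 1075 CPM, above both kinds of clone.

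FZD9, a frizzled receptor known from the nervous system and bone of mice, had 0 counts in both abnormal libraries. In normal fetuses it was at 25.6, 15.6 and 29.4 CPM, and in NF fetuses at 17.1 and 9.93 CPM. Taking 3 counts over the abnormal group as the floor, it was at least 36.3-fold lower in abnormal than in normal fetuses (adjusted p = 0.000807 by edgeR). The record that held 99.4% of FZD9 counts is 1 of 2 that matched, and 4 transcripts are annotated for the gene at 3:10753294-10762812 (Sscrofa11.1).

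DKK1, an antagonist that binds the LRP co-receptors and is needed for head formation in mice, was at 9.17 and 8.55 CPM in abnormal fetuses. Normal fetuses had 3.62, 2.89 and 2.77 CPM. The log2 fold change of 1.52 ± 0.46 (SE) passed narrowly, with adjusted p = 0.0468 by edgeR, and passed in 3 of 14 fits that each left out 1 library, those without either day 35 abnormal library or without day 35 normal replicate 2.

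Abnormal and normal libraries of day 30 did not overlap for 21 of 29 members (72.4%, against 64.3% of all genes), 18 of which did not pass the test. Of all genes that did not pass, 57.9% did not overlap, so such a gap is common in these libraries. WNT1, a ligand of the midbrain and dorsal neural tube in mice, was at 44.6 and 19.7 CPM in abnormal fetuses and at 6.99, 5.63 and 7.01 CPM in normal fetuses (log2 fold change 2.29 ± 0.71 (SE), adjusted p = 0.0546 by edgeR). WNT4, a ligand of kidney and gonad development in mice, was at 78.7 and 92.5 CPM in abnormal fetuses, against 33.4, 25.5 and 30.7 CPM in normal fetuses (adjusted p = 0.0829 by edgeR). SFRP1, the close relative of SFRP2, differed in the other direction from it, with 1252 and 1566 CPM in abnormal fetuses and 684, 754 and 836 CPM in normal fetuses (adjusted p = 0.123 by edgeR). WNT2, WNT5A, SFRP5 and TCF7L2 were lower in both abnormal libraries than in each normal library, with adjusted p from 0.0732 to 0.111.

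All groups share 1 estimate of the spread in these tests, and the calls moved when either of the unlike day 35 abnormal libraries was left out. Without day 35 abnormal replicate 2, 11 members passed in the day 30 comparison, with SFRP1, WNT1, WNT3 and WNT4 among those higher and SFRP5, TCF7L2 and WNT2 among those lower in abnormal fetuses. Without day 35 abnormal replicate 1, 10 passed. With only the groups compared in the fit, 14 passed. The share of all genes that passed moved too, to 31.6%, 31.5% and 42.2% in these 3 fits, beside 35.5%, 33.3% and 48.3% of the members.

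At day 35, 4 of 29 members passed in abnormal against normal fetuses, SFRP2, SFRP5, FZD9 and FZD5, all of them lower in abnormal fetuses. They are 13.8% of the members, against 23.2% of all genes (10.9% higher, 12.3% lower), again with 2 of 6 antagonists and 2 of 7 receptors. The median log2 fold change was -0.04 over members and 0.00 over all genes. The log2(TPM + 1) scale, with a median of all genes of -0.32, gave another split: 497 genes were higher and 2382 lower (1085 and 1215 in edgeR), and 5 members were lower.

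SFRP2 was at 193 and 324 CPM in abnormal fetuses, against 1290.4, 1949 and 1294 CPM in normal fetuses, a log2 fold change of -2.57 ± 0.37 (SE) with adjusted p = 0.00113 by edgeR. It kept its call when each of the 14 libraries was left out in turn, and so did FZD9 and SFRP5. FZD9 had 6.14 and 2.70 CPM in abnormal fetuses and 39.0, 22.8 and 33.8 CPM in normal fetuses, with a log2 fold change of -2.57 ± 0.55 (SE) and adjusted p = 0.00912 by edgeR. In abnormal replicate 2 the FZD9 value is 1 count. SFRP5, another secreted frizzled-related antagonist, known from the foregut of mouse and frog embryos, was at 6.52 and 0 CPM in abnormal fetuses. Normal fetuses had 61.2, 34.7 and 30.1 CPM of SFRP5 (log2 fold change -3.05 ± 0.62 (SE), adjusted p = 0.00611 by edgeR). FZD5, a receptor of the eye and yolk sac in mice, was at 1.92 and 5.40 CPM in abnormal fetuses and at 8.57, 14 and 7.53 CPM in normal fetuses (adjusted p = 0.0405 by edgeR), and its call held in 6 of 14 fits with 1 library left out. It was lost without abnormal replicate 1, normal replicate 1 or 2, any day 30 normal library or either day 35 NF library. In abnormal replicate 2 the FZD5 value lies under the 8.09 CPM that 3 counts make up there. The mean in normal fetuses, 10.0 CPM, is little above that, so replicate 2 says little about FZD5. With only the groups compared in the fit, SFRP2 alone passed, and 3.67% of all genes did.

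Thus 2 members, SFRP2 and FZD9, were lower in abnormal than in normal clones at both days, which is 66.7% of the day 30 calls and 50% of the day 35 calls. The size of the effect was compared between days as an interaction. It passed for 1 member, FZD9, of 29, against 4.05% of all genes (1.31% higher, 2.73% lower), with the difference positive (log2 difference of 7.19 ± 1.61 (SE), day 35 effect minus day 30 effect, adjusted p = 0.0387 by edgeR), a value that rests on a group with 0 counts. For SFRP2 the difference did not pass.

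**Figure D2:**
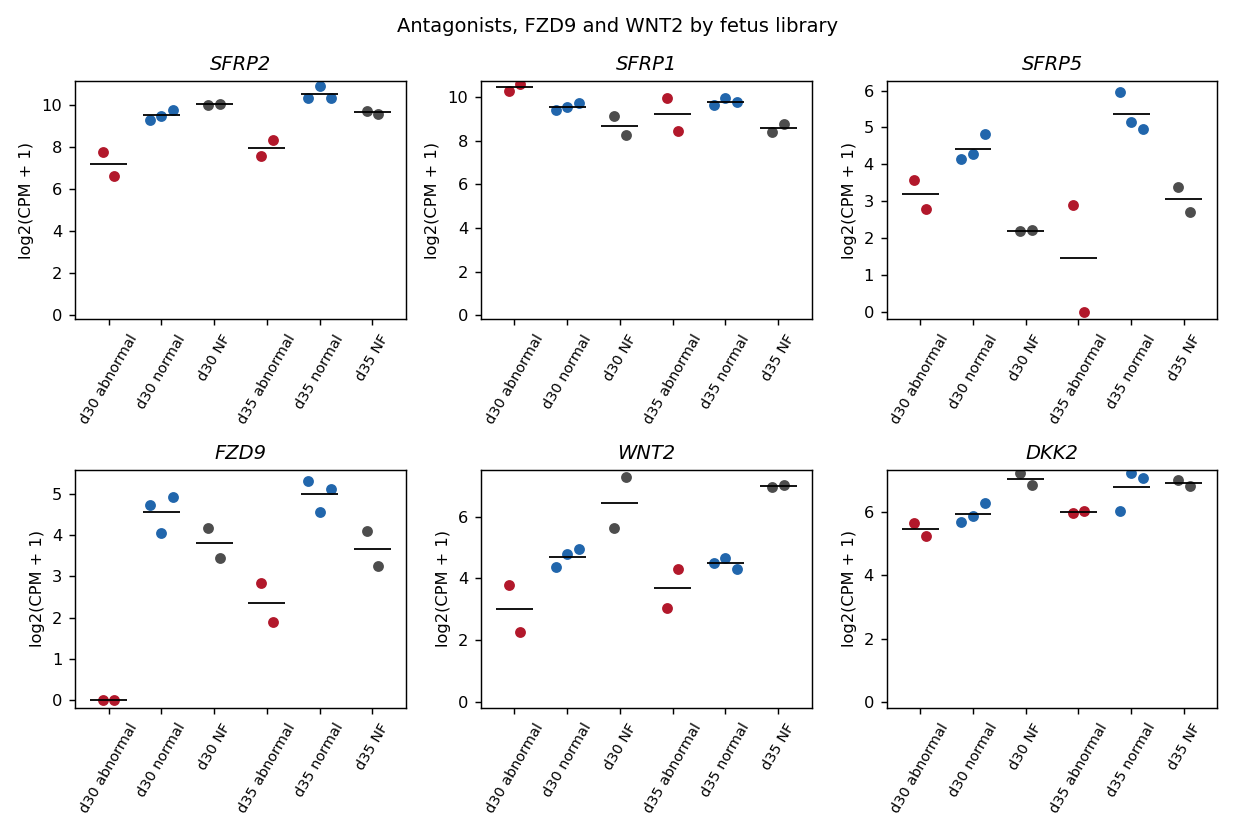
Levels of 3 SFRP antagonists, FZD9, WNT2 and DKK2 in each fetus library, as log2(CPM + 1); points are libraries and lines are means of the log values (d30 and d35, day 30 and day 35). SFRP2 is lower in all 4 abnormal libraries than in any normal library, while SFRP1 is highest in the day 30 abnormal libraries.

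The WNT ligands showed how unlike the day 35 abnormal libraries were. WNT3, a ligand of the primitive streak and limb ectoderm in mice, was at 142 CPM in replicate 1 and at 0 in replicate 2, with 19.7, 36.9 and 29.2 CPM in normal fetuses. WNT1 was at 31.1 CPM in replicate 1 and at 0 in replicate 2, against 6.56, 5.92 and 5.25 CPM in normal fetuses. Replicate 1 thus lay above every normal library for both genes, as for WNT3A, WNT4, WNT7A and FZD10. Replicate 2 lay below every normal library for WNT3, WNT4, WNT7A and FZD10. In the day 30 abnormal libraries WNT1 and WNT3 were above every normal library, as in day 35 abnormal replicate 1. WNT1 and WNT3A were also at 0 in replicate 2, but their means in normal fetuses are under the 8.09 CPM that 3 counts make up there, so a lower level of these genes was not detectable at this depth. Without replicate 2, 14 members passed in abnormal against normal fetuses at day 35, among them WNT1, WNT3, WNT3A and WNT7A, all higher. Without replicate 1, 10 passed, and WNT3, WNT4 and FZD10 were then lower. These are 45.2% and 33.3% of the members tested, against 35.1% and 28.9% of all genes.

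Other genes of the pathway were taken from a list of 77, of which 47 had a record and 43 were tested. At day 30, 5 were higher and 5 lower in abnormal than in normal fetuses (23.3%, against 15.4% of all genes), with a median log2 fold change of -0.26. Those higher were ID2, MYC, BAMBI, FOSL1 and CDX2, all listed as targets or feedback genes. ID2, an inhibitor of basic helix-loop-helix factors, averaged 394 ± 1.99 CPM in abnormal fetuses and 140 ± 5.86 CPM in normal fetuses (SD, n = 2 and 3; adjusted p = 0.00259 by edgeR). MYC averaged 112 ± 11.5 CPM in abnormal fetuses and 52.1 ± 5.29 CPM in normal fetuses (adjusted p = 0.0382 by edgeR). FOSL1, an AP-1 factor, averaged 14.5 ± 1.75 CPM in abnormal and 0.163 ± 0.153 CPM in normal fetuses. Those lower included TWIST1, FST and GPC3, which are on the same list of targets and feedback genes. Of the 19 genes of that list tested, 5 were higher, 3 lower and 11 not called, with a median log2 fold change of -0.50. TWIST1, a mesenchymal transcription factor, averaged 125 ± 7.28 CPM in abnormal fetuses and 375 ± 47.2 CPM in normal fetuses (adjusted p = 0.00334 by edgeR). GPC3, a cell-surface glypican, averaged 271 ± 18.8 CPM in abnormal and 708 ± 44.6 CPM in normal fetuses.

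At day 35, 7 of these 43 genes were higher and 6 lower in abnormal fetuses (30.2%, against 23.2% of all genes), with a median of -0.22. CTNNB1, which encodes β-catenin and was singled out after its values were seen, averaged 949 ± 107 CPM in abnormal fetuses and 516 ± 45.7 CPM in normal fetuses (SD, n = 2 and 3; log2 fold change 0.88 ± 0.15 (SE), adjusted p = 0.00259 by edgeR). MYC averaged 237 ± 57.6 CPM in abnormal and 77.2 ± 7.31 CPM in normal fetuses, and was thus higher in abnormal fetuses at both days, like FOSL1. The mean of FOSL1 at day 35, 82.1 ± 105 CPM in abnormal against 0.122 ± 0.107 CPM in normal fetuses, has an SD larger than itself. GPC3, APC2 and TLE2 were the most strongly lower by fold change, with log2 fold changes of -1.62, -2.21 and -1.33, and PRICKLE2, of the planar polarity group, followed at -1.14. DACT3, a regulator of DVL proteins, was lower (-0.95) and PYGO1, a nuclear partner of β-catenin, higher (0.97). CTNNB1 and the destruction complex gave 3 higher and 1 lower call of 8 tested at day 35, and 0 higher and 1 lower at day 30. Against NF fetuses at day 35, 0 of these 8 were called in abnormal clones (23.2% of all genes). In normal clones 1 was higher and 4 lower than in NF fetuses (42.3% of all genes called). Their summed level at day 35 was 1939 to 2121 CPM in abnormal clones, 1419 to 1510 CPM in normal clones and 2134 to 2140 CPM in NF fetuses.

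Markers of other cell types moved with these differences, and their part in them was not tested. In bulk tissue, fewer cells of a type and less RNA per cell cannot be told apart. Summed neural markers (7 of 10 with a record, none at 0 in any fetus group) were at 456 to 579 CPM in abnormal fetuses at day 30, against 1472 to 1926 CPM in normal fetuses. At day 35 they were at 235 to 267 CPM in abnormal fetuses, against 2195 to 3701 CPM in normal fetuses. Single neural markers were not uniform: 4 were lower and 1 higher of 7 at day 30, and 5 lower and 0 higher at day 35. In NF fetuses the neural sum was at 447 to 537 CPM at day 30 and 372 to 385 CPM at day 35. Normal clones thus stood above both other groups. In abnormal clones against NF fetuses, 4 of 7 neural markers were higher and 0 lower at day 30, and 3 higher and 1 lower at day 35. Summed markers of epidermis and surface epithelium (8 of 8 with a record) ran opposite to the neural sum at day 30. They were at 2248 to 2940 CPM in abnormal fetuses, TP63 being at 0, against 277 to 322 CPM in normal fetuses. Of 7 tested, 3 were higher and 0 lower. KRT8 and KRT18 are on this list and on the trophectoderm list. The trophectoderm sum was at 2006 to 2586 CPM in abnormal fetuses at day 30 (4 of 7 higher), against 217 to 278 CPM in normal fetuses. Placenta and extraembryonic markers (3 of 6 higher) and hypoblast markers (4 of 5 higher) rose too, with 0 lower. Which tissue gave these levels was not tested. At day 35 the epidermis and surface epithelium sum was at 6508 CPM in abnormal replicate 1 and 243 CPM in replicate 2, against 365 to 687 CPM in normal fetuses. The library with high WNT1 and WNT3 was thus also the one with high epithelial markers, but not with these alone. Trophectoderm markers were at 5455 CPM in replicate 1 and 224 CPM in replicate 2, and erythroid markers at 2243 and 8.09 CPM. Other lists went the other way, among them skeletal muscle (62.5 and 645 CPM) and mesenchyme and limb (7916 and 16152 CPM). Which of these went with the WNT levels was not tested. Of 10 skeletal muscle markers, 6 at day 30 and 8 at day 35 were lower in abnormal fetuses and 0 higher. Of 8 liver markers, 5 were called higher at day 30, but their sum was 49.6 CPM in abnormal replicate 1 and 1721 CPM in replicate 2, against 73.1 to 105 CPM in normal fetuses, so the higher sum was in 1 library. Of 8 leukocyte markers 5 were higher at day 30 and 5 lower at day 35.

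More members differed between normal clones and NF fetuses than between abnormal and normal clones. In normal clones against NF fetuses, 14 of 29 members passed at day 30 (10 higher, 4 lower) and 13 at day 35 (11 higher, 2 lower). These are 48.3% and 44.8% of the members, against 29.3% and 42.3% of all genes. Of all genes, 14% were higher and 15.3% lower at day 30, and 22.1% higher and 20.1% lower at day 35. By role, 5 of 11 WNT ligands were higher and 1 lower at each day, and 3 of 7 receptors were higher at each day. The median log2 fold change of members was 0.67 at day 30 and 0.90 at day 35, against 0.00 and 0.06 over all genes. With log2(TPM + 1) values, 6 members were higher and 1 lower at day 30, and 8 were higher and 2 lower at day 35. On that scale 24.1% of members and 22.5% of all genes passed at day 30, and 34.5% and 37.4% at day 35. The member share was thus near that of all genes. Called in the same direction at both days were 9 members, or 64.3% of the day 30 calls and 69.2% of the day 35 calls: WNT1, WNT3, WNT3A, WNT4, WNT7A, FZD10, FZD2 and SFRP5 were higher in normal clones, and WNT2 was lower.

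FZD10, a frizzled receptor of the dorsal neural tube and limb in chick and mouse embryos, was at 97.2, 86.6 and 87.8 CPM in normal clones at day 30, against 7.51 and 8.38 CPM in NF fetuses. At day 35 normal clones had 83.1, 90.4 and 84.2 CPM of FZD10, against 7.01 and 6.12 CPM in NF fetuses. The libraries of each group lay close together and far from the other group, with log2 fold changes of 3.51 ± 0.54 (SE) at day 30 and 3.70 ± 0.55 at day 35 (adjusted p = 0.00117 and 0.00056 by edgeR).

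WNT7A, a ligand of dorsal limb ectoderm and of the female reproductive tract in mice, was at 19.5, 19.3 and 23.1 CPM in normal clones at day 30, against 0.682 and 0.915 CPM in NF fetuses. At day 35 WNT7A was at 20.7, 24.1 and 17.6 CPM in normal clones and at 0.171 and 0.524 CPM in NF fetuses. The log2 fold changes were 4.65 ± 0.85 (SE) and 5.80 ± 0.97, with adjusted p = 0.00296 and 0.00107 by edgeR. Together with FZD10 and SFRP5, WNT7A kept its call at both days when each of the 14 libraries was left out in turn.

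WNT1 was at 6.99, 5.63 and 7.01 CPM in normal clones at day 30, against 0.546 and 0.152 CPM in NF fetuses (adjusted p = 0.0126 by edgeR). At day 35 NF fetuses had 0 counts of WNT1, and normal clones, at 6.56, 5.92 and 5.25 CPM, were at least 22.8-fold higher, with 3 counts over the NF group as the floor (adjusted p = 0.00318 by edgeR). The annotated spans of WNT1 (5:15010607-15015007) and WNT10B (5:14997377-15013928) overlap on Sscrofa11.1, and whether counting used strand is not given in the sources used here. WNT10B itself was at most 0.657 CPM in normal clones and NF fetuses.

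WNT3A, which keeps tail bud and paraxial mesoderm growing in mice, averaged 4.54 ± 0.382 CPM in normal clones and 0.578 ± 0.0452 CPM in NF fetuses at day 30 (SD, n = 3 and 2), and 5.97 ± 2.72 CPM against 0.346 ± 0.00522 CPM at day 35. Its neighbour on chromosome 2, WNT9A (2:51102757-51128346, with WNT3A at 2:51153978-51203678), averaged 23.1 ± 4.24 CPM in normal clones and 15.8 ± 4.39 CPM in NF fetuses at day 30, and did not pass at either day. WNT3 averaged 22.4 ± 1.70 CPM in normal clones and 3.82 ± 0.198 CPM in NF fetuses at day 30, and 28.6 ± 8.64 CPM against 5.19 ± 0.323 CPM at day 35. WNT4 averaged 29.9 ± 4.04 CPM in normal clones, against 8.61 ± 1.25 CPM in NF fetuses, at day 30, and 52.1 ± 1.48 CPM against 7.07 ± 3.93 CPM at day 35. The day 30 calls of WNT3 and WNT4 were narrow (adjusted p = 0.0459 and 0.047 by edgeR) and each was lost on leaving out 12 of the 14 libraries in turn.

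**Figure D3:**
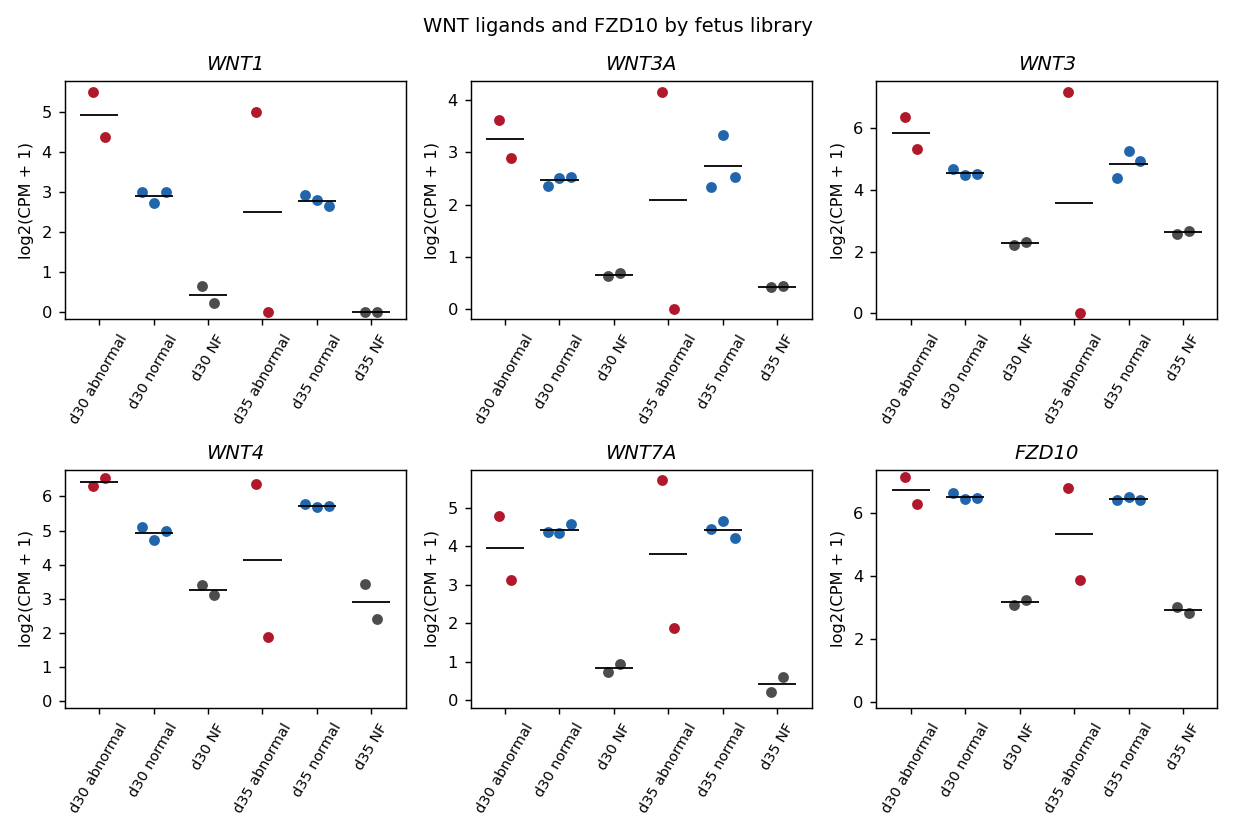
Levels of 5 WNT ligands and FZD10 in each fetus library, as log2(CPM + 1); points are libraries and lines are means of the log values (d30 and d35, day 30 and day 35). Every normal clone lies above every NF fetus of its day for all 6 genes, and the day 35 abnormal libraries lie on both sides of the normal ones. Normal clones and NF fetuses did not overlap, in either direction, for 65.8% of all genes at day 30 and 72.9% at day 35.

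SFRP5 was at 16.6, 18.4 and 27.5 CPM in normal clones at day 30, against 3.55 and 3.66 CPM in NF fetuses (log2 fold change 2.53 ± 0.53 (SE), adjusted p = 0.00541 by edgeR). At day 35 it was at 61.2, 34.7 and 30.1 CPM in normal clones and at 9.41 and 5.59 CPM in NF fetuses (2.48 ± 0.51, adjusted p = 0.00312). DKK3, a divergent DKK family member, passed at day 35 alone, with 236, 149 and 152 CPM in normal clones against 35.3 and 36.3 CPM in NF fetuses (2.32 ± 0.35, adjusted p = 0.00065 by edgeR). FZD3, a receptor of axon guidance and polarity in mice, passed at day 30 alone, with 62.9, 57.1 and 52.2 CPM in normal clones against 22.8 and 14 CPM in NF fetuses (1.64 ± 0.45, adjusted p = 0.0191). Whether the effect of DKK3 or FZD3 differs between days was not tested. FZD2 was at 246, 264 and 242 CPM in normal clones at day 30, against 143 and 110.0 CPM in NF fetuses, and at 222, 219 and 272 CPM at day 35, against 111 and 105 CPM (adjusted p = 0.0417 and 0.0171 by edgeR). The remaining higher calls were DVL2, a relative of DVL1, at day 30 (adjusted p = 0.0365) and FZD9 and SFRP1 at day 35 (adjusted p = 0.0272 and 0.0299).

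WNT2, a ligand of lung and placental vessels in mice, differed in the other direction. It was at 19.5, 26.8 and 29.7 CPM in normal clones at day 30, against 48.6 and 153 CPM in NF fetuses, and at 21.5, 24.5 and 18.9 CPM in normal clones at day 35, against 124 and 130.2 CPM in NF fetuses. No normal clone reached the level of any NF fetus of its day. The log2 fold changes were -1.98 ± 0.46 (SE) and -2.55 ± 0.46, with adjusted p = 0.00884 and 0.00163 by edgeR. At day 30 its call was lost without NF replicate 2. DKK2 was lower in normal clones at day 30, at 49.9, 57.2 and 77.7 CPM against 148 and 115 CPM in NF fetuses (-1.09 ± 0.31, adjusted p = 0.0226). DVL1 was at 180.2, 171 and 178 CPM in normal clones at day 30, against 304 and 320.5 CPM in NF fetuses (-0.82 ± 0.24, adjusted p = 0.026). FZD4, a receptor of retinal vessels in mice and humans, was at 53.3, 45.3 and 62.2 CPM, against 94.7 and 85.7 CPM (-0.75 ± 0.25, adjusted p = 0.0438). TCF7L2 was lower in normal clones at day 35, at 40.4, 55.0 and 61.0 CPM against 101 and 80.9 CPM in NF fetuses (-0.81 ± 0.21, adjusted p = 0.0102). The groups did not overlap for any of these 4 genes. Such a gap was common, at 65.8% of all genes at day 30 and 72.9% at day 35.

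The 7 tested members that passed in no fetus comparison were FZD7, LEF1, RSPO4, WNT2B, WNT9A, WNT11 and WNT16. FZD7, a receptor of early embryos and stem cells, was abundant, at 128 to 295 CPM with a median of 235 CPM over the 14 libraries. LEF1, a TCF/LEF factor, was at 8.09 to 61.2 CPM, and WNT11, a ligand of polarity signalling, at 0 to 42.0 CPM. WNT9A ran from 10.8 to 44.7 CPM, WNT2B from 5.37 to 29.0 CPM, WNT16 from 3.45 to 16.2 CPM and RSPO4 from 0 to 6.00 CPM. The lowest adjusted p of the 7 was 0.056, for WNT9A in abnormal clones against NF fetuses at day 30.

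At day 30 the NF libraries are the ones whose Y-linked levels went against their labels. Without NF replicate 1, 7 members were called higher and 1 lower in normal clones (22.9% of all genes were called), and without NF replicate 2, 3 were called higher and 0 lower (12.5% of all genes). Leaving out normal replicate 1, 2 or 3 left 5, 4 or 6 higher and 1, 1 or 2 lower. These are 20.7%, 17.2% or 27.6% of the members, against 18.9%, 18.9% or 19.2% of all genes. At day 35, 6 were higher and 2 lower without NF replicate 2 (21% of all genes), and 15 higher and 5 lower when either day 35 abnormal library was left out (54.8% or 54.9% of all genes). Summed neural markers were at 1472 to 1926 CPM in normal clones and 447 to 537 CPM in NF fetuses at day 30, and at 2195 to 3701 CPM against 372 to 385 CPM at day 35. Of 7 neural markers, 6 were higher at day 30 and 7 at day 35, with 0 lower. Summed erythroid markers (8 of 8 with a record) were at 1288 to 2902 CPM in normal clones and 58.9 to 227 CPM in NF fetuses at day 30, with 7 of 8 higher, and at 1431 to 2841 CPM against 175 to 187 CPM at day 35, with 3 of 8 higher. Summed mesenchyme and limb markers were at 4916 to 6366 CPM in normal clones and 13761 to 17655 CPM in NF fetuses at day 30, with 2 higher and 2 lower of 6 tested. At day 35 they overlapped, at 5636 to 12659 CPM against 9769 to 11582 CPM. Summed epidermis and surface epithelium markers were at 277 to 322 CPM in normal clones and 310 to 386 CPM in NF fetuses at day 30. The part of these cell types in the member differences was not tested.

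**Figure D4:**
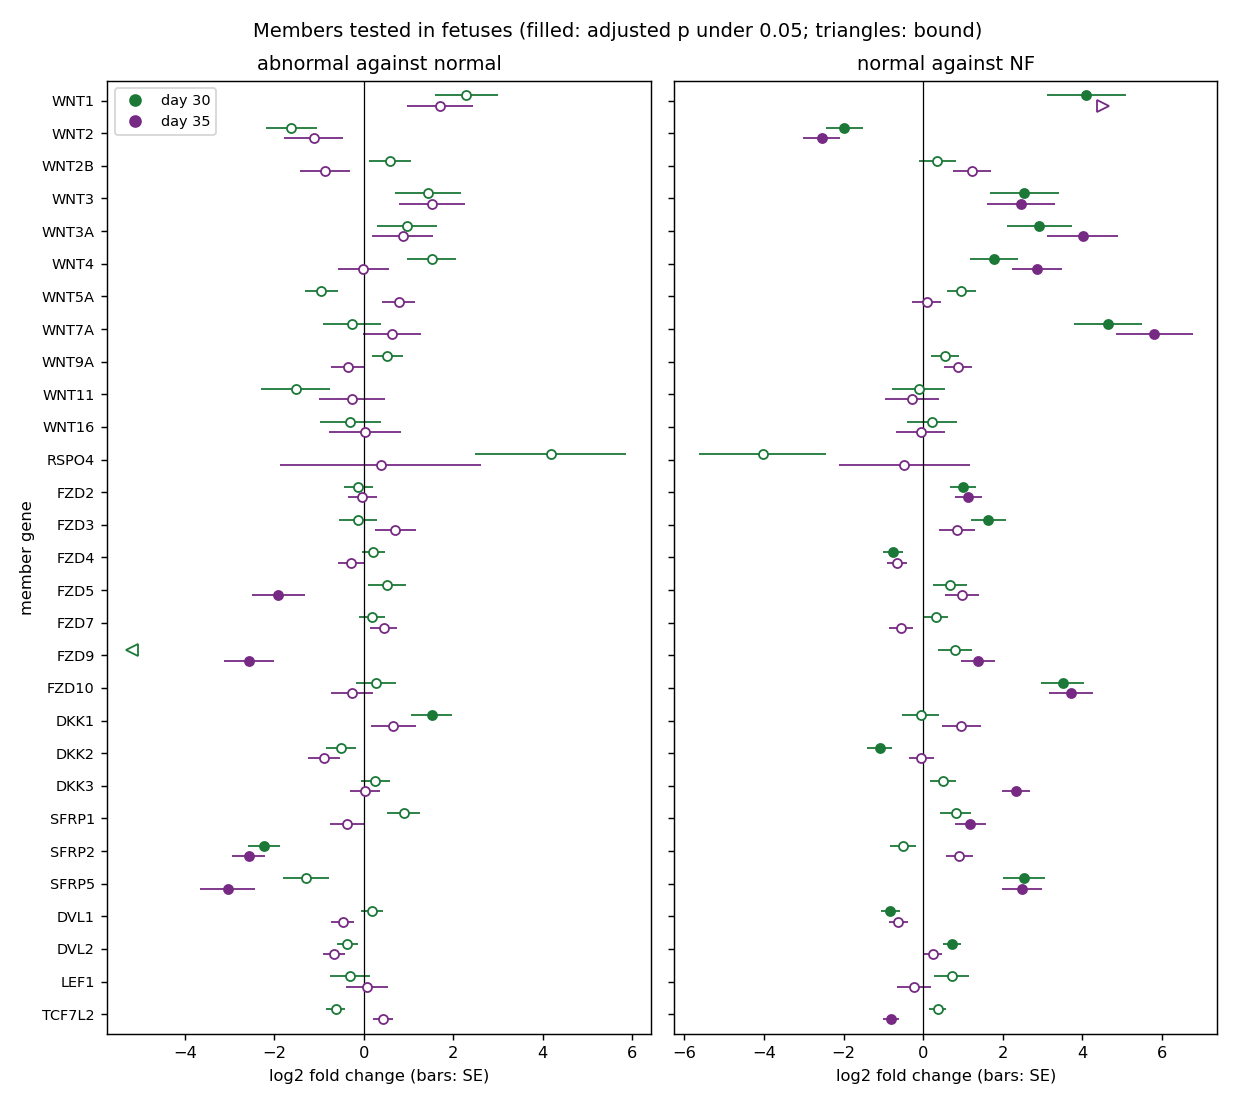
Log2 fold change (points) with its SE (bars) for the 29 members tested in fetuses, in abnormal against normal clones (left) and normal clones against NF fetuses (right), at day 30 and day 35. Filled points passed an adjusted p of 0.05 and triangles mark bounds against a floor of 3 counts; SFRP2 and FZD9 lie left of 0 at both days on the left, and WNT1, WNT3, WNT3A, WNT4, WNT7A, FZD10, FZD2 and SFRP5 lie right of 0 at both days on the right.

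Abnormal clones were set against the same NF libraries, so their calls are not independent of those above. At day 30, 12 of 29 members passed (8 higher, 4 lower; 41.4%, against 30% of all genes, 15.5% higher and 14.5% lower), and at day 35, 13 passed (9 higher, 4 lower; 44.8%, against 23.2%, 13% higher and 10.2% lower). Taken on log2(TPM + 1), where all genes had medians of -0.23 and -0.37, these splits were 4 higher and 4 lower at day 30 and 2 higher and 8 lower at day 35, and over all genes 937 higher and 1893 lower (1538 and 1436 in edgeR) and 389 higher and 2085 lower (1291 and 1010 in edgeR).

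FZD10 was at 141 and 76.5 CPM in day 30 abnormal clones, against 7.51 and 8.38 CPM in NF fetuses (log2 fold change 3.77 ± 0.56 (SE), adjusted p = 0.00176 by edgeR). WNT1, at 44.6 and 19.7 CPM against 0.546 and 0.152 CPM, had a log2 fold change of 6.39 ± 1.06 (adjusted p = 0.0033). WNT4, at 78.7 and 92.5 CPM in abnormal clones and 9.5 and 7.73 CPM in NF fetuses, had 3.30 ± 0.67 (adjusted p = 0.00643). WNT7A was at 26.7 and 7.70 CPM in abnormal clones and at 0.682 and 0.915 CPM in NF fetuses (adjusted p = 0.00646). For WNT3A the values were 11.4 and 6.41 CPM in abnormal clones and 0.546 and 0.610 CPM in NF fetuses (adjusted p = 0.00958). All these ligands and FZD10 were thus above NF fetuses in both kinds of clone at day 30.

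Lower in abnormal clones than in NF fetuses at day 30 were SFRP2, FZD9, WNT2 and DKK2. WNT2 was at 12.7 and 3.85 CPM in abnormal clones, against 48.6 and 153 CPM in NF fetuses (-3.61 ± 0.61 (SE), adjusted p = 0.0029 by edgeR). FZD9, at 0 counts in abnormal clones, was at least 20.8-fold lower than in NF fetuses. DKK2 was at 48.9 and 37.2 CPM in abnormal clones and at 148 and 115 CPM in NF fetuses (-1.61 ± 0.36, adjusted p = 0.00978). SFRP2 averaged 158 ± 86.7 CPM in abnormal clones and 1057 ± 24.9 CPM in NF fetuses (SD, n = 2 each; -2.74 ± 0.39, adjusted p = 0.00138). Without NF replicate 2, 4 members were higher and 4 lower, and without NF replicate 1, 7 and 4. The share of all genes called moved between settings too, so these counts alone do not set the members apart.

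At day 35 the 2 abnormal libraries differed in where they stood against NF fetuses. WNT1, WNT3, WNT3A, WNT4, FZD2 and FZD3 were above NF fetuses in abnormal replicate 1 and not in replicate 2, while SFRP2, WNT2, DVL1 and FZD4 were below, and DKK3 and FZD10 above, NF fetuses in both. WNT1, WNT3, WNT3A, WNT4 and WNT7A were at 31.1, 142, 16.9, 81.6 and 51.4 CPM in abnormal replicate 1, and at 0, 0, 0, 2.70 and 2.70 CPM in replicate 2. In NF fetuses of day 35, WNT4 was at 9.85 and 4.29 CPM, WNT3 at 4.96 and 5.42 CPM, and WNT1, WNT3A and WNT7A at no more than 0.524 CPM. FZD10 was at 110.1 and 13.5 CPM in abnormal clones, against 7.01 and 6.12 CPM in NF fetuses. Each of these ligands was thus above NF fetuses in replicate 1, and FZD10 was above them in both. In replicate 2 each ligand came to 0 or 1 count, which at this depth cannot be placed above or below its level in NF fetuses. Without NF replicate 1, 6 members were higher and 2 lower (9.15% of all genes were called), and without NF replicate 2, 3 and 1 (3.48%). Without abnormal replicate 1, 1 member passed (9.68% of all genes), DKK3, at 128 and 248 CPM in abnormal clones, against 35.3 and 36.3 CPM in NF fetuses. WNT1, undetected in NF fetuses, was at least 59.9-fold higher by the mean of the abnormal libraries, with 1 of them at 0. Of the lower members, SFRP2 was at 193 and 324 CPM in abnormal clones and 841 and 774 CPM in NF fetuses, and WNT2 at 7.29 and 18.9 CPM against 124 and 130.2 CPM. DVL1, at 119.7 and 243 CPM against 315 and 437 CPM, and FZD4, at 38.4 and 48.6 CPM against 89.5 and 73.6 CPM, were also lower. Summed epidermis and surface epithelium markers were at 6508 CPM in replicate 1 and 243 CPM in replicate 2, against 260 to 508 CPM in NF fetuses.

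Between days, 3 of 29 members passed in normal clones (10.3%, against 9.19% of all genes, 5.35% higher and 3.84% lower). DKK3 was at 236, 149 and 152 CPM at day 35, against 81.0, 83.6 and 88.5 CPM at day 30 (log2 fold change 1.09 ± 0.29 (SE), adjusted p = 0.0409 by edgeR). TCF7L2 was at 40.4, 55.0 and 61.0 CPM at day 35, against 116, 100.0 and 105 CPM at day 30 (-1.04 ± 0.19, adjusted p = 0.0134). WNT5A, which drives outgrowth of limbs and face in mice, was at 36.5, 71.1 and 94.4 CPM at day 35, against 153, 200.3 and 159 CPM at day 30 (-1.35 ± 0.33, adjusted p = 0.029). The days did not overlap for any of these 3 genes, as for 52.8% of all genes. Each of these calls was lost on leaving out at least 3 of the 14 libraries in turn, day 30 normal replicates 1 and 2 among them, while 6 members were higher and 5 lower when either day 35 abnormal library was left out (24.6% or 24.7% of all genes). By log2(TPM + 1) values the calls over all genes were 335 higher and 363 lower (530 and 381 in edgeR), and 0 members were higher and 2 lower. In NF fetuses 0 of 29 members passed between days, and 0% of all genes did; 0 members had an unadjusted p under 0.05, and DESeq2 called 0.

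Members were sparse in the day 6 embryos. Counts were found for 22 of 33 members in at least 1 embryo library, and for 5 in all 8: the ligand WNT3A, the receptors FZD4 and FZD10, DKK3 and DVL1. The highest mean in each role was 8.45 TPM for DKK3, 5.27 TPM for DVL1, 3.86 TPM for WNT3A, 3.40 TPM for FZD4 and 0.0462 TPM for TCF7L2. RSPO2, RSPO4 and LEF1 were at 0 in all 8 libraries, and so were SFRP2 and SFRP5, which were called in the fetus comparisons. Tests covered 13 members, with a biological coefficient of variation of 0.893 in embryos, against 0.29 in fetuses.

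DVL1 was the single member that passed in any embryo comparison. It was at 0.120 and 1.12 CPM in WT+Kdm4A embryos, against 86.3 and 63.2 CPM in WT embryos, a log2 fold change of -6.91 ± 1.55 (SE) with adjusted p = 0.0244 by edgeR. That is 1 of 13 members, or 7.69%, against 7.43% of all 6958 genes tested (2.95% higher, 4.48% lower). The call was lost on leaving out WT+Kdm4A replicate 1 or either WT library. Over all genes the log2(TPM + 1) scale called 220 higher and 540 lower (205 and 312 in edgeR), and DVL1 was again the member called. In XIST-KO embryos DVL1 was at 9.16 and 1.19 CPM and in IVF embryos at 4.74 and 4.05 CPM, so both WT libraries stood above the other 6. DESeq2 called DKK3 too, higher in WT+Kdm4A embryos, at 35.4 and 37.8 CPM against 0.966 and 6.44 CPM in WT embryos (adjusted p = 0.136 by edgeR).

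In XIST-KO against WT embryos 0 of 13 members passed by edgeR, against 1.11% of all genes (0.417% higher, 0.69% lower). Of them 1, DVL1, had an unadjusted p under 0.05 (log2 fold change -3.85 ± 1.33 (SE), adjusted p = 0.159 by edgeR), and DESeq2 called that member. FZD10 was at 4.37 and 6.44 CPM in XIST-KO embryos, against 0.483 and 0.174 CPM in WT embryos (adjusted p = 0.268), and FZD4 at 43.0 and 24.8 CPM against 28.0 and 29.6 CPM. The calls over all genes on log2(TPM + 1) were 41 higher and 194 lower (29 and 48 in edgeR), with 0 members.

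In WT against IVF embryos 0 of 13 members passed by edgeR, against 5.71% of all genes (4.28% higher, 1.42% lower), and 4 had an unadjusted p under 0.05. DESeq2 called 2, DVL1 and DKK3. DVL1 was at 86.3 and 63.2 CPM in WT embryos, against 4.74 and 4.05 CPM in IVF embryos (log2 fold change 4.09 ± 1.35 (SE), adjusted p = 0.0947 by edgeR). DKK3 was at 0.966 and 6.44 CPM in WT embryos and at 19.6 and 45.9 CPM in IVF embryos (adjusted p = 0.155). FZD5, undetected in IVF embryos, was at 7.57 and 3.48 CPM in WT embryos, at least 27.1-fold higher, with 3 counts over the IVF group as the floor (adjusted p = 0.141). WNT7A, undetected in WT embryos, was at 2.29 and 0.613 CPM in IVF embryos, at least 5.79-fold lower in WT (adjusted p = 0.186). WNT3A, the leading ligand, overlapped between these groups, with 22.1 and 1.74 CPM in WT embryos and 16.7 and 12.5 CPM in IVF embryos. Over all genes the calls were 298 higher and 99 lower in edgeR and 452 and 487 on log2(TPM + 1), where 1 member was higher and 1 lower.

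**Figure D5:**
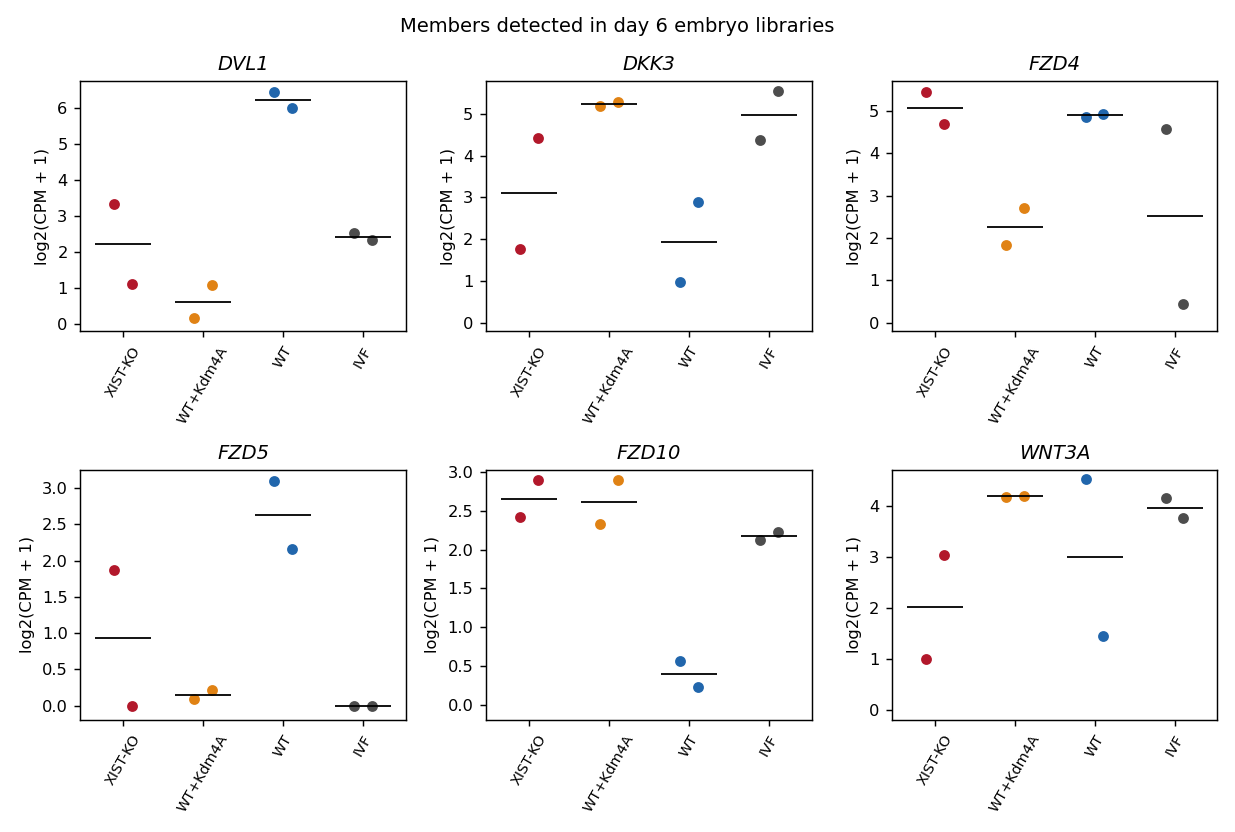
Levels of DVL1, DKK3, FZD4, FZD5, FZD10 and WNT3A in each day 6 embryo library, as log2(CPM + 1); points are libraries and lines are means of the log values. Both WT libraries lie above the other 6 for DVL1 and below the other 6 for FZD10.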

How the data were processed

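RNA from pig fetuses and day 6 embryos was extracted with Trizol; NEBNext libraries were built from total RNA of fetuses and from cDNA of embryos, per the labels' protocols. Per the submitters' processing notes, RSEM 1.2.4 was used with Sscrofa11.1 (susScr11). The deposited tables list 65927 RefSeq records, with expected counts and TPM per the file headers; the aligner is not given in the sources used here.

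RefSeq accessions, read without their version, tied records to gene symbols (25305 records, 38.4%, in 14389 genes; with version 4488 genes), and expected counts and TPM were summed per symbol. The share of counts in matched records was 66% to 69% in fetus and 79.5% to 85% in embryo libraries, which left 0.41 to 7.65 M and 5.13 to 17.04 M gene counts per library.

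After rounding, a filterByExpr filter and TMM scaling, counts were tested with the quasi-likelihood F-test of edgeR 4.0.16 under R 4.3.3, 1 fit per stage with a mean per group, in 12 comparisons. P-values were adjusted by Benjamini-Hochberg over 9911 (fetus) or 6958 (embryo) genes, with a threshold of 0.05. Every member is accounted for; values per library are given for called members (average log2 CPM of at least 1) of abnormal against normal, and for up to 5 per direction by adjusted p elsewhere. Other pathway genes named are up to 8 per day by size of change. Further genes that did not pass are named to describe a comparison. A member undetected in a group has a bound against 3 counts over the group, which covers counting error only. The members and all lists were chosen with earlier results of these data known.

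Alternatives were RLE size factors, no filter, a filter at 1 CPM in 2 libraries, DESeq2 1.42.0, limma 3.58.1 on log2(TPM + 1) and log2(TPM + 0.1), only the groups compared, the replicate number as a block, records matched with version, and each library left out in turn. The fits were run first on simulated data with known answers. Python 3.11.15, pandas 2.3.3, numpy 2.4.6 and matplotlib 3.10.9 made the tables and figures.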

Additional observations from a re-analysis of the deposited data

Results flagged for a closer look

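FZD9 differed between days in abnormal against normal fetuses by a test of the difference itself. It was lower in abnormal fetuses at both days, and less so at day 35: the signed log2 fold change at day 35 minus that at day 30 was 7.19 ± 1.61 (SE, adjusted p = 0.0387, interaction in edgeR). The gene had 0 counts in both day 30 abnormal libraries and 6.14 and 2.70 CPM in the day 35 abnormal libraries, and the size of the interaction depends on the treatment of 0 counts. The interaction passed in 5 of 14 fits that each left out 1 library, over a range of 6.26 to 7.55. It was lost without any of the day 30 abnormal or normal libraries, day 35 abnormal replicate 1 or any of the day 35 normal libraries.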

How the results depend on the processing

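Counts of members called are given by setting. The share of all genes called moved between settings too, so a count alone does not set the members apart. For abnormal against normal at day 30, DESeq2 called 17.2% of members and 21% of all genes. Versioned records gave 14.3% and 12.7%, and only the groups compared 48.3% and 42.2%. At day 35 only the groups compared gave 3.57% and 3.67%. For normal against NF at day 30, log2(TPM + 0.1) gave 13.8% and 19.2%, and the replicate block 31% and 21.2%. For abnormal against normal at day 30 (3 called), DESeq2 called 5, versioned records 1 and the fit of only the groups compared 14; leaving out single libraries gave 2 to 11. At day 35 (4 called) the fit of only the groups compared called 1, and leaving out libraries gave 3 to 14. The interaction (1) had 4 with DESeq2 and 0 to 9 without single libraries. Normal against NF at day 30 (14) had 7 on log2(TPM + 1), 4 on log2(TPM + 0.1), 9 with the replicate block and 1 with versioned records, and 3 to 15 without single libraries; at day 35 (13) it had 4 with versioned records, 20 with only the groups compared and 8 to 20 without single libraries. Abnormal against NF had 2 with versioned records and 8 to 18 without single libraries at day 30 (12), and 1 with versioned records, 0 with only the groups compared and 1 to 17 without single libraries at day 35 (13). Normal at day 35 against day 30 (3) had 6 with DESeq2, 1 with the replicate block, 0 with versioned records, 12 with only the groups compared and 0 to 11 without single libraries. NF at day 35 against day 30 had 0 in every alternative run. WT against IVF (0) had 1 with no filter, 2 with DESeq2, 2 and 1 on log2(TPM + 1) and log2(TPM + 0.1), 2 with only the groups compared and 0 to 1 without single libraries. XIST-KO against WT (0) had 1 with DESeq2, 0 with the replicate block, 0 with the block crossed (added after seeing the data, the same-number correlation being -0.31) and 0 to 1 without single libraries. WT+Kdm4A against WT (1) had 2 with DESeq2, 0 with versioned records, 2 with only the groups compared and 0 to 1 without single libraries.

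Deviations of same-numbered libraries from their group means correlated at -0.31 to 0.15. In groups of 2 these deviations mirror each other, so this check cannot exclude pairing by replicate number. With the replicate block, 2, 3 and 1 members were called in the 2 abnormal against normal comparisons and the interaction. These are 6.9%, 10.3% and 3.45% of the members, against 7.4%, 15.1% and 1.56% of all genes.

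Of 64 called log2 fold changes, DESeq2 kept every one on its side of the threshold, and RLE size factors kept 62. Without day 35 abnormal replicate 1, 6 of abnormal against NF at day 35 changed sign or were 0. Over the libraries left out in turn, the log2 fold change ran from -0.027 to 1.62 for FZD2, -0.76 to 2.08 for FZD3, 0 to 10.27 for WNT1, -7.64 to 4.77 for WNT3, -3.83 to 5.51 for WNT3A and -1.46 to 3.53 for WNT4. In the same comparison WNT3 was -0.16 on log2(TPM + 0.1) and WNT4 was -2.83 with versioned records. Without replicate 1 these values rest on replicate 2, where WNT1, WNT3 and WNT3A had 0 counts and WNT4 1 count at a depth of 0.41 M gene counts, so their signs cannot be read as a lower level than in NF fetuses. The cause of the other shifts was not tested. Only 9 of 33 members have a versioned record, so fewer genes were tested there. Groups of 2, and 0.59 M counts in 1 library, limit what could be detected.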
